A study of Mus musculus with 2 samples.

Results

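The oncostatin M, gp130 and Stat3 pathway was followed through 9 genes of the 31053 genes counted, in 2 single-cell RNA libraries of mouse retina. The genes were the ligands Osm (oncostatin M), Lif, Cntf and Clcf1, the receptor chains Osmr, Lifr and Il6st (gp130), the transcription factor Stat3 and its feedback inhibitor Socs3. They were chosen by pathway and symbol with UMI levels of these same 2 libraries already known, so their levels are given as description and their counts as no evidence of enrichment. Each library was 1 pool of retinas from 6 C57BL/6 mice aged 6 to 8 weeks, taken 2 weeks after optic nerve injury. One group had received PBS and the other had received MSC-sEV, small extracellular vesicles of mesenchymal stem cells. Both pools were digested with papain and passed over CD45 magnetic beads, which hold leukocytes back. There was 1 library per group, so no difference between treatments could be tested: all intervals are 95% intervals for counting error alone, and mouse-to-mouse spread was not measured. An unequal number of cells of each kind, the treatment and the library cannot be told apart.

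Oncostatin M, leukaemia inhibitory factor and ciliary neurotrophic factor belong to the interleukin 6 family of cytokines, whose receptors nearly all share the signalling chain gp130. Binding of the ligand activates Janus kinases attached to the receptor chains, these phosphorylate Stat3, and Stat3 then switches on target genes, among them Socs3, which shuts the receptor down again. In retina the pathway is known from reactive Müller glia, the radial support cells, and from protection of stressed photoreceptors by Lif.

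Barcodes with at least 500 UMIs (unique molecular identifiers, 1 per captured transcript), at least 300 genes and at most 15% mitochondrial UMIs numbered 1347 with PBS and 2323 with MSC-sEV. They held 8037219 and 16565276 UMIs, and levels are given as counts per 1000000 UMIs of the same cells and library (CPM). After removal of 3 and 4 called doublets, the cells had a median of 2596 and 2922 UMIs, and no barcode was shared between the libraries. The cells fell into 20 clusters, which were named "X-like" only from lists of marker genes. The labels call the material retina immune cells, but leukocyte clusters made up 109 of 1344 cells with PBS (8.11%) and 884 of 2319 with MSC-sEV (38.1%). Most of the other cells were rod-like, cone-like, bipolar cell-like or Müller glia-like. The microglia-like class came mainly from different clusters in the 2 libraries. Cluster 5 held 69 PBS and 178 MSC-sEV cells, cluster 7 held 1 and 187, and cluster 16 held 39 and 0. Clusters 6, 8, 12 and 13 held MSC-sEV cells only.

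Osm was almost absent from the PBS library and abundant in the MSC-sEV library, where leukocytes held nearly all of it. The PBS library held 8 Osm UMIs, each in its own cell. The MSC-sEV library held 663, of which 649 lay in leukocyte clusters (97.9%, interval 96.5 to 98.8). The gene lies at 4236420 to 4241026 on the plus strand of chromosome 11 (GRCm38), and Lif follows it on the same strand at 4257557 to 4272514. Of the 8 PBS UMIs, 6 were in cluster 16, a microglia-like cluster led by the homeostatic microglia genes Hpgd, P2ry12 and Tmem119, and the other 2 were in rod-like cells.

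In microglia-like cells, Osm stood at 9.03 CPM with PBS (interval 3.32 to 19.7, 6 UMIs in 109 cells). It stood at 69.1 CPM with MSC-sEV (60.7 to 78.2, 247 UMIs in 365 cells). The MSC-sEV level was 7.64 times the PBS level, with an interval of 3.46 to 21.03, and the intervals of the 2 levels did not overlap. This difference compares different clusters. In cluster 5, the only microglia-like cluster with more than 1 cell of each library, Osm had 0 UMIs of 160566 with PBS and 5 of 592228 with MSC-sEV, so no difference was detectable there at this depth. Cells were also thinned to 1000 UMIs, and the 46 MSC-sEV and 26 PBS cells under that depth were left out. Then 17 of 319 MSC-sEV microglia-like cells held an Osm UMI (5.33%, exact binomial interval 3.13 to 8.40). Of the PBS ones, 0 of 83 did, with an upper limit of 4.35%, so the 2 intervals overlapped. Unthinned, the shares were 88 of 365 (24.1%) and 6 of 109 (5.50%), at median depths of 5371 and 3148 UMIs. Among MSC-sEV rod-like cells, used as the background, the unthinned share was 9 of 1241 (0.725%) at a median of 2446 UMIs.

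Osm was found in every leukocyte cluster of the MSC-sEV library. The highest level was in cluster 8, an unnamed cluster with a median of 1207 UMIs whose leading genes include the granulocyte genes Retnlg, Ccr3 and Alox15, at 225 CPM (169 to 294). That level rests on few cells, since 12 of its 139 cells held all 54 UMIs and 1 cell held 31 of them (57.4%). Cluster 6, unnamed and led by Chil3, Ccl8 and Spp1, held 233 Osm UMIs in 71 of 221 cells at 58.4 CPM. Its finer parts differed. The monocyte-derived macrophage-like part of 155 cells stood at 74.2 CPM (64.4 to 85.0), and the type 2 conventional dendritic cell-like part of 66 cells at 21.04 (13.6 to 31.1), so their intervals did not overlap.

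The T cell-like cluster stood at 61.5 Osm CPM (50.1 to 74.7), but at a finer resolution it split into cells of different kinds. Its T cell-like part of 65 cells held 27 Osm UMIs at 29.8 CPM. Its other 44 cells, microglia-like with the division genes Top2a and Mki67 among the cluster's leading genes, held 74 at 100.4 CPM (78.8 to 126). Migratory dendritic cell-like cells, marked by Ccr7 and Ccl22, stood at 24.7 CPM (13.5 to 41.5). Cluster 7, the main microglia-like cluster of this library, split into 132 microglia-like cells at 75.7 CPM and 55 cells at 114 CPM that could not be named and were led by Retnlg and G0s2. The T cell-like part and both kinds of dendritic cell-like cells thus stood below 30 CPM, as did the MSC-sEV cells of cluster 5 at 8.44. The macrophage-like, dividing microglia-like and granulocyte-gene cells and both parts of cluster 7 stood above 70, and no interval of the first set overlapped one of the second. The sets were sorted by these levels, and the intervals do not cover the spread between cells. In the dividing part 12 cells held the 74 UMIs, with 19 in 1 cell. In the T cell-like part 11 cells held the 27, with 9 in 1 cell.

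**Figure D1:**
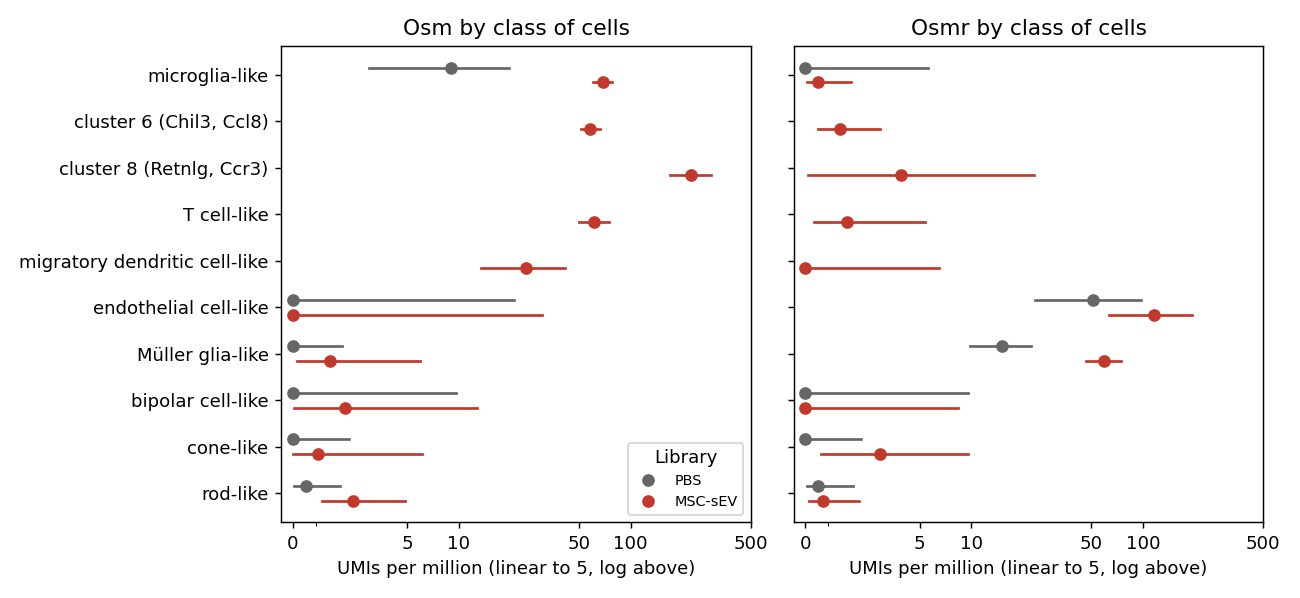
Levels of the ligand gene Osm (left) and its receptor gene Osmr (right) by class of cells, as CPM (points) with exact Poisson 95% intervals (lines), in the PBS library (grey) and the MSC-sEV library (red). Osm is high in the leukocyte classes in the upper rows, from 24.7 to 225 in the MSC-sEV library, and Osmr in endothelial cell-like and Müller glia-like cells in the lower rows.

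Within a class, the Osm transcripts were spread over many cells rather than held by 1 or 2, cluster 8 apart. Among MSC-sEV microglia-like cells, 45 cells held 1 Osm UMI, 25 held 2 to 4 and 18 held at least 5. Those 18 held 141 of the 247 UMIs, and the cell with the most held 16. In cluster 6 the numbers were 25, 28 and 18, and the highest cell held 11. Cells with an Osm UMI were also deeper: in microglia-like cells they had a median of 15076 UMIs, against 3550 in cells without one. Arg1, an arginine-degrading enzyme common in alternatively activated macrophages, was seen in 75 of the 88 Osm-positive microglia-like cells (85.2%) and in 192 of the 277 others (69.3%). In cluster 6 it was seen in 59 of 71 (83.1%) and 100 of 150 (66.7%). In cluster 8, all 5 cells with a transcript of the related cytokine gene Il6 were among the 12 Osm-positive cells, and none were among the other 127. Positive cells were deeper in each of these sets, and the part of depth in the shared detection was not tested.

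**Figure D2:**
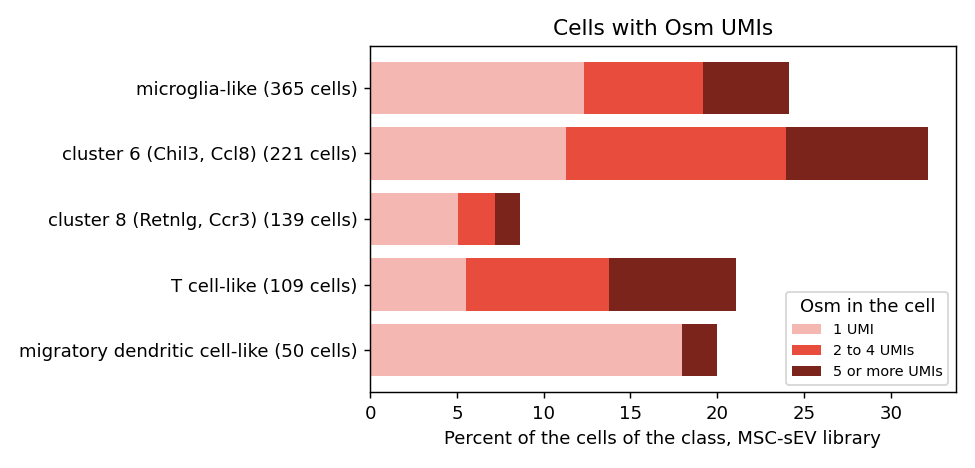
Percent of cells with 1, 2 to 4, or at least 5 Osm UMIs in each leukocyte class of the MSC-sEV library. Bars start at 0 and reach 24.1% in microglia-like cells, 32.1% in cluster 6 and 8.63% in cluster 8.

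Lif, Clcf1 and Cntf were rare. Lif, a ligand of the Lifr and gp130 pair, had 1 UMI with PBS and 25 with MSC-sEV. Of these 25, the T cell-like part of cluster 12 held 16, in 5 cells, with 9 in a single cell. Müller glia-like cells held 5, each in a cell of its own, against 1 with PBS. Microglia-like cells held none in either library, and the upper bounds of their intervals were 1.03 CPM with MSC-sEV and 5.55 with PBS.

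Clcf1, the ligand that signals through the ciliary neurotrophic factor receptor, had 30 UMIs with PBS and 73 with MSC-sEV. It lies on the plus strand of chromosome 19 at 4214238 to 4223490, and 8.17% of its exon bases are shared with the gene AC109138.7 on the same strand. Leukocytes held 11 of the 30 and 64 of the 73. In microglia-like cells it stood at 16.6 CPM with PBS and at 7.55 with MSC-sEV, a ratio of 0.456 whose interval of 0.219 to 1.02 did not leave out 1. Müller glia-like cells stood at 8.71 and 6.60 CPM, and cone-like, bipolar cell-like and endothelial cell-like cells had none.

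Cntf had 0 UMIs in both libraries. It lies on the minus strand of chromosome 19 at 12763660 to 12765632, and 78.9% of its exon bases are shared with the zinc finger gene Zfp91 on the same strand. Zfp91 had 1371 and 3098 UMIs. Transcripts of Cntf that could not be assigned to 1 gene of the pair would not be counted, so its 0 does not show that the gene was silent.

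Osmr, the receptor chain that joins gp130 for oncostatin M, lay mostly in other cells than Osm. It lies on the minus strand of chromosome 15 at 6813577 to 6874969, and Lifr, the chain of the related receptor, on the plus strand at 7090614 to 7197489. The PBS library held 37 Osmr UMIs and none of them in leukocytes, and the MSC-sEV library held 104, with 12 of them (11.5%) in leukocytes. Müller glia-like cells held 26 of the 37 and 72 of the 104. Endothelial cell-like cells, which line vessels, held 9 in 21 cells with PBS (51.0 CPM, 23.3 to 96.8) and 14 in 10 cells with MSC-sEV (115 CPM, 63.1 to 194). Rod-like cells held 2 and 3 UMIs, cone-like cells 0 and 3, and bipolar cell-like cells none.

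Osmr in Müller glia-like cells stood at 15.1 CPM with PBS (9.86 to 22.1) and 59.4 with MSC-sEV (46.4 to 74.7). The MSC-sEV level was 3.93 times the PBS level (2.48 to 6.41). In cluster 9 alone, which held the deep Müller glia-like cells, the levels were 18.4 and 60.7 CPM and the ratio was 3.30 (2.08 to 5.40). There 19 of 81 PBS cells and 34 of 52 MSC-sEV cells held an Osmr UMI. With cells thinned to 1000 UMIs, which left out 36 PBS and 22 MSC-sEV cells, the share over the class was 1 of 132 (0.758%) and 6 of 65 (9.23%). Their intervals, 0.0192 to 4.15 and 3.46 to 19.0, overlapped. The ratio of the thinned levels was 6.09 (1.09 to 61.7), from 2 and 6 UMIs, and its interval left out 1. The ratio ran higher when cells were weighted equally (8.16) and lower when cells were classed one by one from marker scores (2.39). In the 66 PBS and 28 MSC-sEV cells that held no UMI of C1qa, C1qb, C1qc or Tyrobp, it rested on 7 and 4 UMIs and was 1.87 (0.401 to 7.35), so no difference was detectable there. Those cells had a median of 1477 and 1196 UMIs, against 5212 and 3384 in the whole class.

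A gene was called higher or lower in a class where its levels differed at least 2-fold, its interval left out 1 and it had at least 20 UMIs over both libraries. Of the 9 members, 6 reached that minimum in Müller glia-like cells: Osmr, Lifr, Il6st, Clcf1, Stat3 and Socs3. Of these, Osmr, Lifr and Stat3 were called higher with MSC-sEV and none lower, where 7.98% of the 10310 genes tested in that class were called higher and 3.67% lower. In microglia-like cells 6 members were tested, and Osm, Lifr and Stat3 were called higher and none lower, where 7.14% of 10025 genes were higher and 5.33% lower. In rod-like cells 4 were tested, and Il6st and Stat3 were called higher and none lower, where 12.7% of 10497 genes were higher and 5.38% lower. In cone-like cells Il6st alone of 4 was higher, where 9.86% of genes were higher and 1.59% lower. In bipolar cell-like cells Il6st and Stat3 of 4 were higher, where 6.58% were higher and 2.33% lower. The median log2 ratio of the tested members was 0.90 in microglia-like cells, 0.98 in Müller glia-like cells and 1.06 in rod-like cells, beside 0.03, 0.14 and 0.24 over all genes tested. Members under the minimum were too rare for a call in either direction.

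**Figure D3:**
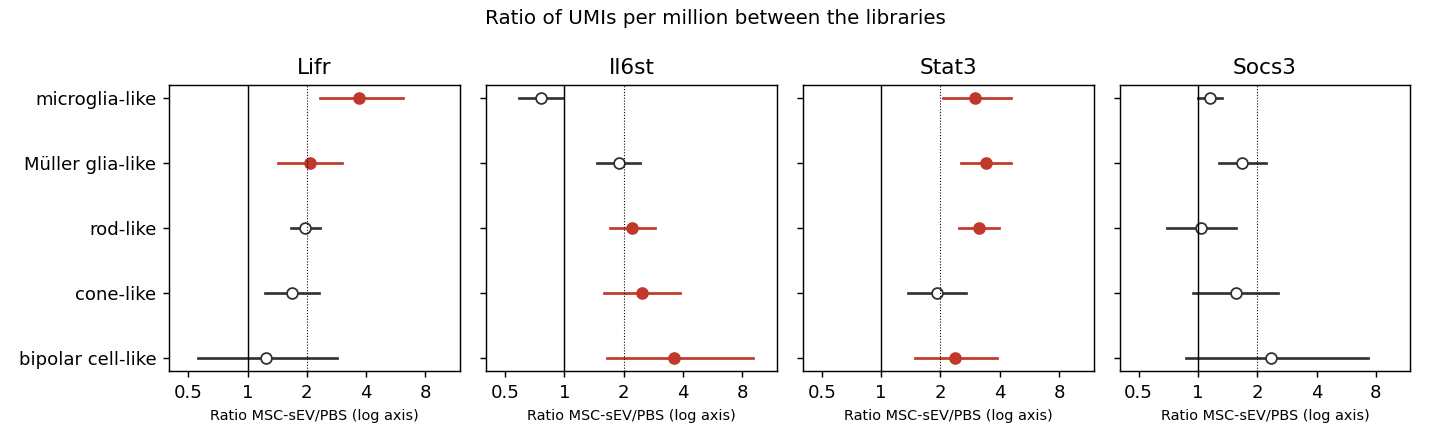
Ratio of the MSC-sEV level to the PBS level for Lifr, Il6st, Stat3 and Socs3 in 5 classes of cells, on a log axis, with exact conditional binomial 95% intervals (lines). Filled red points were called higher, open points were not called, and the dotted line marks a ratio of 2. Stat3 lies between 1.92 and 3.39 in all 5 classes, whereas Il6st lies at 0.758 in microglia-like cells and between 1.88 and 3.62 in the retinal classes.

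Lifr, the receptor chain that joins gp130 for Lif and, with Cntfr, for ciliary neurotrophic factor, was spread over neurons, glia and leukocytes. In rod-like cells it stood at 59.7 CPM with PBS (208 UMIs) and 118 with MSC-sEV (443 UMIs), a ratio of 1.97 (1.67 to 2.33). Cone-like cells stood at 55.2 and 93.1 CPM, a ratio of 1.69 (1.23 to 2.31). These 2 ratios lay short of the 2-fold needed for a call, although their intervals left out 1. For Müller glia-like cells the levels were 29.0 and 60.2 CPM, a ratio of 2.07 (1.43 to 3.03), which turned to 0.775 with cells weighted equally and 0.870 after thinning to 1000 UMIs, the latter from 7 and 3 UMIs. Without the cell with the most Lifr UMIs in each library it was 1.96 (1.33 to 2.92), under the 2-fold of a call. In microglia-like cells they were 28.6 and 105 CPM, a ratio of 3.68 (2.33 to 6.19), and in cluster 5 alone 43.6 and 84.4, a ratio of 1.94 whose interval of 0.874 to 5.06 took in 1.

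Il6st, on the plus strand of chromosome 13 at 112464070 to 112510086, encodes gp130, the chain shared by nearly the whole cytokine family. Its ratio pointed one way in the retinal classes and the other way in microglia-like cells. In rod-like cells it stood at 23.8 CPM with PBS and 52.6 with MSC-sEV, a ratio of 2.21 (1.70 to 2.89). That ratio moved with the cells taken: it was 1.93 (1.47 to 2.57) without the PBS-only cluster 15, and it was 1.66 in cluster 0 alone (0.890 to 3.43) and 1.47 with cells classed by marker scores (0.859 to 2.62), where the intervals took in 1. It was 6.58 (2.86 to 18.6) after thinning, from 6 and 61 UMIs. In cone-like cells it stood at 23.9 and 59.1, a ratio of 2.47 (1.59 to 3.88). In bipolar cell-like cells it stood at 20.7 and 75.1, a ratio of 3.62 (1.64 to 9.08) that rests on 8 and 33 UMIs. All 3 neuron classes were thus near 20 CPM with PBS and above 50 with MSC-sEV.

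Müller glia-like Il6st stood at 67.4 and 127 CPM, a ratio of 1.88 (1.47 to 2.42), just under the 2-fold of a call, and 1.25 (0.477 to 2.93) in the cells without a C1q or Tyrobp UMI. Microglia-like cells had 113 CPM with PBS and 85.5 with MSC-sEV, a ratio of 0.758 (0.587 to 0.989). Without the cell with the most Il6st UMIs in each library it was 0.846 (0.645 to 1.12), and the interval took in 1. The clusters of the class lay further apart: cluster 16 of the PBS library stood at 138 CPM, and cluster 5 at 37.4 with PBS and 59.1 with MSC-sEV, a ratio of 1.58 (0.658 at its lower bound), and the interval took in 1. Weighting cells equally also turned the ratio of the class, to 1.24.

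Stat3, the transcription factor at the end of the chain, was higher with MSC-sEV in each of the 5 classes compared, and its intervals left out 1 in all 5. Microglia-like cells stood at 42.2 CPM with PBS (28 UMIs) and 127 with MSC-sEV (453 UMIs), a ratio of 3.00 (2.05 to 4.57), and cluster 5 alone gave 4.16 (1.34 to 20.9) from 3 and 46 UMIs. Müller glia-like cells stood at 38.9 and 132, a ratio of 3.39 (2.53 to 4.58), and cluster 9 alone gave 3.34 (2.43 to 4.66). In the Müller glia-like cells without a C1q or Tyrobp UMI, which held 16 and 7 Stat3 UMIs, the ratio was 1.43 (0.498 to 3.68), and no difference was detectable. Rod-like cells stood at 28.1 and 88.1 CPM, a ratio of 3.13 (2.49 to 3.96). Cone-like cells stood at 43.9 and 84.3, a ratio of 1.92 (1.36 to 2.71), which was not called, and bipolar cell-like cells at 67.4 and 159, a ratio of 2.36 (1.49 to 3.87).

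Stat3 lies on the minus strand of chromosome 11 at 100885098 to 100939540, where Stat5a on the other strand overlaps 0.756% of its exon bases. Its ratio was not even over the rod-like clusters. It was 2.82 (1.68 to 5.12) in cluster 0, among whose leading genes were Mir124a-1hg and Rpgrip1. In cluster 4, which shared those leading genes, it was 3.596 (1.503 to 9.88), and in cluster 3 it was 1.95 (1.21 to 3.20). Clusters 1 and 2 gave 1.08 (0.407 to 3.62) and 1.23 (0.363 to 3.36), so no difference was detectable in them. Among leukocytes of the MSC-sEV library, migratory dendritic cell-like cells stood apart with 353 Stat3 CPM (306 to 406), above the 102 to 178 of the parts of clusters 6, 7, 8 and 12.

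Socs3, on the minus strand of chromosome 11 at 117966079 to 117970047, encodes the inhibitor that binds gp130 and blocks the attached Janus kinases. Its promoter is shown because it was the only 1 of the 7 members with an entry in RefSeq's promoter table to hold the Stat binding motif TTCNNNGAA. Windows ran from 250 bases before to 50 bases after each start site, and the motif is its own reverse complement, so 1 search covers both strands. Among all 32851 such windows, 8.30% held it, so 1 of 7 is not set apart from that share. The stretch below, from RefSeq (GRCm38.p6, chr11:117969487-117969545, minus strand, read 5′ to 3′), carries the motif in capitals, with its first base 154 bases before the start site. In the GENCODE annotation it overlaps no exon: it lies 301 bases upstream of the coding Socs3 transcript and in an intron of a longer transcript without coding sequence. A match is a description and not a measured binding site.
Socs3: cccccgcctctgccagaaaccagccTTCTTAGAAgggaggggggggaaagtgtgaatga

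Socs3 transcripts lay mostly in leukocytes: 227 of 421 UMIs with PBS (53.9%) and 2764 of 2990 with MSC-sEV (92.4%). In microglia-like cells Socs3 stood at 342 CPM with PBS (299 to 389) and 394 with MSC-sEV (374 to 415), a ratio of 1.15 (1.00 to 1.33) beside the 3.00 of Stat3. Per cluster the levels were far apart. The shallow cluster 5 stood at 18.7 with PBS and 74.3 with MSC-sEV, a ratio of 3.98 (1.27 to 20.02) from 3 and 44 UMIs. The deeper microglia-like cells stood at 439 in cluster 16 (PBS) and 498 in the microglia-like part of cluster 7 (MSC-sEV). Cluster 8, which had the highest Osm, had 20.9 Socs3 CPM, while cluster 6 had 232 and migratory dendritic cell-like cells 88.3.

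Socs3 in Müller glia-like cells stood at 58.1 and 97.3 CPM, a ratio of 1.67 (1.27 to 2.21), not called. All 100 PBS UMIs and 115 of the 118 MSC-sEV UMIs were in cluster 9, where the ratio was 1.43 (1.08 to 1.89). The ratio of the class was 4.95 with cells weighted equally, 5.45 (1.06 to 35.1) in the cells without a C1q or Tyrobp UMI, from 3 and 5 UMIs, and 2.71 (0.458 to 18.5) after thinning, from 3 and 4. Transcripts typical of leukocytes were also counted in these cells. Relative to the leukocytes of the same library, 14 leukocyte transcripts stood at a median of 8.80% in Müller glia-like cells with PBS (1.63 to 128, Cd74 being the highest), and 15 stood at 3.49% with MSC-sEV (2.10 to 10.1). Socs3 stood at 17.0% and 35.3% of the leukocyte level, above the median in both libraries. With PBS it lay above every leukocyte transcript but Cd74, the next being Lyz2 at 14.85%, and with MSC-sEV it lay above the range. Il6st stood at 59.7% and 181%, and Stat3 at 92.3% and 91.4%, each above every leukocyte transcript but Cd74 with PBS. The part of carried-over transcripts in these levels was not tested.

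In rod-like cells Socs3 stood at 14.1 and 14.6 CPM, a ratio of 1.04 (0.693 to 1.56). That value rests on cluster 15, 46 rod-like cells of the PBS library alone, which held 36 of the 49 PBS UMIs and in which leukocyte transcripts stood at a median of 18.0% of the leukocyte level (2.57 to 37.1). Without cluster 15 the levels were 4.97 and 14.6 CPM and the ratio 2.94 (1.58 to 5.86). In those cells Socs3 stood at 1.46% of the leukocyte level with PBS. The leukocyte transcripts had a median of 1.14% there and a range of 0.107 to 1.78, so Socs3 lay within their range. With MSC-sEV it stood at 5.29%, where they had a median of 2.20% and a highest value of 3.86%. Their part in the difference was not tested. Rod-like Il6st and Stat3 lay above the highest of these transcripts, at 74.9% and 61.1% of the leukocyte level with MSC-sEV. Osm in rod-like cells stood at 4.10%.

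Other genes of the pathway were taken from 7 lists. Among other gp130 family ligands, Ebi3, a subunit of interleukins 27 and 35, was the only one of 8 tested in microglia-like cells. It stood at 46.7 CPM with PBS and 16.5 with MSC-sEV. It was called lower at a ratio of 0.353, beside 5.33% of all genes tested. In Müller glia-like cells 3 of 8 were tested and none called, among them Ctf1 (cardiotrophin 1) at 13.4 and 14.8 CPM. Among other receptors, Cntfr, the binding chain for ciliary neurotrophic factor, stood at 98.7 and 94.0 CPM in Müller glia-like cells, a ratio of 0.952 (0.744 to 1.21). Il6ra, the interleukin 6 binding chain, stood at 167 and 132 in microglia-like cells, a ratio of 0.788. No other receptor of the list was called in any of the 5 classes.

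Among the 4 Janus kinases, which carry the signal from receptor to Stat, Jak2 was called higher in microglia-like cells, at 18.1 and 55.1 CPM (ratio 3.05). The other 3 were tested and not called, where 7.14% of all genes tested were called higher. In Müller glia-like cells Jak2 (2.13) and Tyk2 (2.84) were called higher of 3 tested, beside 7.98% of all genes tested. There Jak1 was at 67.4 and 101 CPM and not called. Of other Stat factors, 3 of 5 tested were called higher in microglia-like cells, 2 of 4 in Müller glia-like cells and 2 of 2 in rod-like cells. The shares over all genes tested were 7.14%, 7.98% and 12.7%. Stat2, a mediator of interferon signals, was called higher in microglia-like cells (2.49), Müller glia-like cells (2.39) and rod-like cells (2.32). In microglia-like cells Stat5b was also called higher (2.75), and Stat6 stood at 54.2 and 51.2 CPM. Stat3 was therefore not the only Stat gene with a higher level.

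Among 7 inhibitors, all tested, the cytokine-inducible Cish, Socs1 and Socs2 were called higher in microglia-like cells, beside 7.14% of all genes tested. The member Socs3 was not called. Cish had 1 UMI with PBS and 159 with MSC-sEV, a ratio of 29.5 (5.22 to 1173). Socs1 stood at 10.5 and 101 CPM (9.58) and Socs2 at 6.02 and 35.8 (5.94). The phosphatase gene Ptpn6, which leukocytes express, stood at 238 and 195 in the same cells. In Müller glia-like cells Ptpn6 was the only inhibitor called of 5 tested. It was lower, at 17.4 and 4.12 CPM, beside 3.67% of all genes tested. In those cells 15 chosen leukocyte transcripts, and not all leukocyte transcripts, made up 0.438% of UMIs with PBS and 0.139% with MSC-sEV. The part of carried-over leukocyte transcripts in that difference was not tested. The median log2 ratio of the inhibitors was 0.37 in microglia-like and 0.25 in Müller glia-like cells, beside 0.03 and 0.14 over all genes tested. No inhibitor of 5 tested was called in rod-like cells, where 12.7% of genes were higher and 5.38% lower.

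Of 23 genes known to be induced through Stat3, 21 were tested in Müller glia-like cells. Of these, 10 were called higher and 2 lower, beside 7.98% and 3.67% of all genes tested. The list's median log2 ratio was 1.04, beside 0.14 over all genes tested. The iron-binding acute-phase gene Lcn2 had 26 UMIs with PBS and 4833 with MSC-sEV, 15.1 and 3984 CPM, a ratio of 264 (180 to 404). A single cell held 2229 of the 4833, and 17 cells held them all. Of the 52 MSC-sEV cells of cluster 9, 16 held Lcn2, and 13 of these 16 also held Osmr (54.4 to 96.0%), as did 21 of the other 36 (40.8 to 74.5%). The Lcn2-positive cells had a median of 26450 UMIs and the others 9921.5, and the part of depth was not tested. The protease inhibitor Serpina3n stood at 9.87 and 251 CPM (ratio 25.5) and Timp1, an inhibitor of matrix proteases, at 6.97 and 138 (19.9), and their top cells held 86 of 305 and 74 of 168 UMIs. The metallothionein Mt1 stood at 870 and 3292 (3.79), the ferroxidase Cp at 488 and 2126 (4.35), and the transcription factor Cebpd at 330 and 880 (2.66). Called lower were the kinase gene Pim3, at 28.5 and 11.5, and the chemokine gene Ccl2, at 36.6 and 9.07. In the cells without a C1q or Tyrobp UMI the list's median was 0.25. Not all members of the list thus pointed the same way, and Junb, an immediate-early factor, stood at 354 and 383.

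**Figure D4:**
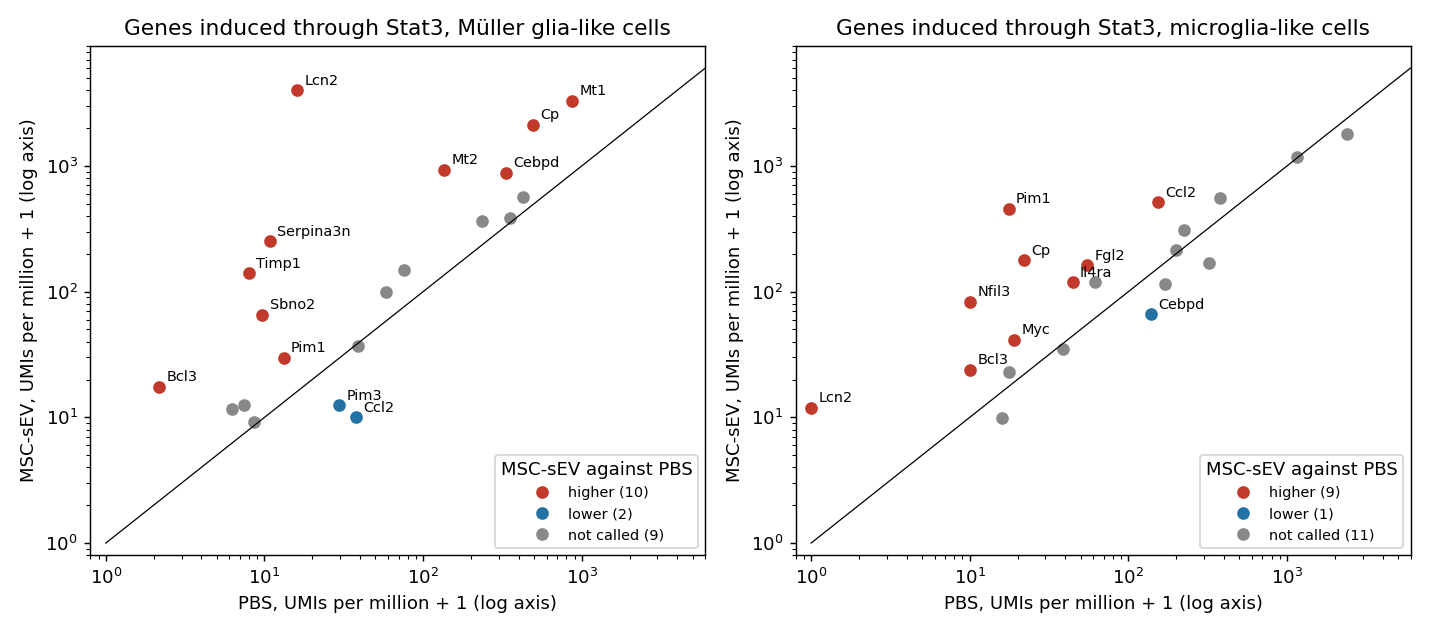
Genes of the list induced through Stat3 in Müller glia-like cells (left) and microglia-like cells (right), as CPM plus 1 in the PBS library (horizontal) and the MSC-sEV library (vertical), both on log axes. In Müller glia-like cells 10 genes were called higher (red) and 2 lower (blue), in microglia-like cells 9 and 1, and the diagonal marks equal levels.

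In microglia-like cells 21 genes of the same list were tested, and 9 were called higher and 1 lower, beside 7.14% and 5.33% of all genes tested. The median log2 ratio was 0.57 beside 0.03 over all genes. The kinase gene Pim1 stood at 16.6 and 457 CPM (ratio 27.6, 15.4 at its lower bound) and Cp at 21.1 and 177 (8.40). Ccl2, lower in Müller glia-like cells, was called higher here, at 154 and 513 CPM (3.34). Cebpd, higher in Müller glia-like cells, was the one called lower here, at 137 and 64.9 (0.473). In cluster 5 alone the median log2 ratio of the list was 1.60.

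In rod-like cells 19 genes of the list were tested, with 4 called higher and 2 lower, beside 12.7% and 5.38% of all genes tested. The median log2 ratio was 0.08 beside 0.24 over all genes. Bcl3, a partner of NF-kB, stood at 1.44 and 12.5 CPM (8.69) and Pim1 at 2.30 and 12.7 (5.55). Hif1a, the abundant hypoxia factor, stood at 550 and 844 (1.53), and Fos at 180 and 118. The list's median rests on cluster 15: without it the median was 0.94. In cone-like cells 3 of 11 tested were called higher and 0 lower, beside 9.86% and 1.59% of all genes tested. The median there was 0.17, beside 0.22 over all genes. In bipolar cell-like cells 0 of 8 tested were called higher and 2 lower, beside 6.58% and 2.33%. The median there was -0.19, beside 0.09 over all genes.

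Of 11 genes of reactive glia, 10 were tested in Müller glia-like cells and 8 were called higher, beside 7.98% of all genes tested. The list's median log2 ratio was 1.76, beside 0.14 over all genes tested. The protease inhibitor A2m had 1 UMI with PBS and 130 with MSC-sEV (ratio 185, interval 32.5 to 7343, with 32 of the 130 in 1 cell), and the complement inhibitor Serping1 stood at 41.2 and 272 CPM (6.60). S100a6, a calcium-binding protein, stood at 307 and 1074 (3.50). The intermediate filament genes Gfap and Vim, classic markers of reactive Müller glia, were not called, at 131 and 178 (1.36) and at 1343 and 1579 (1.18). The Gfap level rests on few cells. In cluster 9, 6 of 81 PBS cells and 17 of 52 MSC-sEV cells held Gfap, at median depths of 12915 and 20428 UMIs in the cluster. Of these Gfap-positive cells, 1 and 2 also held the astrocyte gene Pax2. The similar levels thus do not show that Gfap was unchanged from cell to cell. In rod-like cells 6 genes were tested and 5 called higher, beside 12.7% of all genes tested. The 5 included Edn2 (endothelin 2) at 13.5 and 83.1 CPM (6.16) and Fgf2 (basic fibroblast growth factor) at 43.1 and 154 (3.57). Both are known as stress signals of photoreceptors. The list's shift was not particular to Müller glia-like and rod-like cells. In microglia-like cells 4 of 7 tested were called higher, beside 7.14% of all genes tested, with a median log2 ratio of 2.25. Cone-like cells had 3 of 4 called higher, beside 9.86%, and a median of 1.43. Bipolar cell-like cells had 1 of 2, beside 6.58%, and a median of 1.36.

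Cells with receptor transcripts often held Stat3 as well. In cluster 9 of the MSC-sEV library, 30 of the 34 Osmr-positive cells held Stat3 (88.2%) and 29 held Il6st (85.3%), against 9 and 8 of the 18 others. The positive cells had a median of 23183 UMIs and the others 2615. Among MSC-sEV rod-like cells, 52 of 151 Il6st-positive cells held Stat3 (34.4%) and 190 of the other 1090 (17.4%), at medians of 3374 and 2318 UMIs, and 44 (29.1%) and 157 (14.4%) held Edn2. Socs3 was in 7 of the 151 (4.64%) and 45 of the 1090 (4.13%). Depth moved with detection in both sets, and its part was not tested.

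Over the 25 combinations of cluster and library with at least 30 cells, the genes with levels most like those of each member were sought among 9732 genes, as Pearson's r of log2 levels. Osm was most like Nabp1 (0.96), Coro2a (0.95) and AB124611 (0.93). Socs3 was most like Limk1 (0.91), Tor3a (0.90) and Dock4 (0.90), and Stat3 like Khnyn (0.87) and Tyk2 (0.87). Il6st was most like Tbl1x (0.82), Ctnnd1 (0.81) and Mfhas1 (0.79), and Lifr like Sec63 (0.81), Pde4dip (0.81) and Gigyf2 (0.79). Between members, r was 0.62 for Osm with Stat3, 0.56 for Osm with Socs3, 0.62 for Il6st with Socs3, 0.50 for Il6st with Stat3 and -0.29 for Lifr with Osm. These points share libraries and depth and are no independent samples, so the values only describe how the levels were spread.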

How the data were processed

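The authors used the 10x 3′ v3 kit, per the labels' protocols. The submitters' processing notes name Cell Ranger 3.0.2 and the mm10 build. The deposited values are raw counts of UMIs per gene and barcode. Members, gene lists and comparisons were chosen with earlier results of these data known. From the counts, barcodes with at least 500 UMIs, 300 genes and at most 15% mitochondrial UMIs were kept, doublets were called with Scrublet, and cells were clustered with scanpy 1.11.5 and leidenalg 0.10.2 (2000 variable genes, 30 components, 20 neighbours, resolution 1.0). A cluster was named where at least 3 markers of a list passed (20% of cells, 2-fold) and its 10 leading genes did not go against the name. Unnamed clusters with Ptprc in at least 50% of cells counted as leukocytes. Levels are UMIs summed over the cells of a class and library, per 1000000 UMIs of that sum (CPM). Levels carry exact Poisson intervals, shares Clopper-Pearson intervals and ratios exact conditional binomial intervals, all 95% and covering counting error only. The code was checked on simulated counts. Each list's named genes are up to 4 with the most UMIs in the class and up to 2 with the largest ratio by its nearer bound, from which the text takes examples; other genes of a list were named after their values were seen. Positions come from GENCODE M21, and 3′ counts do not depend on gene length. Alternatives covered the cell filter, doublets, resolution, class by score, scaling, cell weights, thinning, top cells and foreign transcripts. Some genes of the lists and of the likeness search are not reported here.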

Additional observations from a re-analysis of the deposited data

Results flagged for a closer look

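Il6st pointed in opposite directions in microglia-like cells and in retinal cells, and this difference between classes was not tested, since there was 1 library per group. Its MSC-sEV level was 0.758 times the PBS level in microglia-like cells, 1.88 times in Müller glia-like, 2.21 times in rod-like, 2.47 times in cone-like and 3.62 times in bipolar cell-like cells, and all 5 intervals left out 1. The microglia-like value did not hold its direction in cluster 5 alone (1.58) or with cells weighted equally (1.24), and without the cell with the most Il6st UMIs in each library it was 0.846 (0.645 to 1.12). The Müller glia-like value was 1.25 (0.477 to 2.93) without cells holding microglia transcripts, and the rod-like value was 1.47 (0.859 to 2.62) with cells classed by marker scores, and both intervals took in 1.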

How the results depend on the processing

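No paired analysis was possible because each group had 1 library, so no replicate could be left out either. The Osm ratio of microglia-like cells (7.64) was 1.56 after thinning to 1000 UMIs, from 18 UMIs against a floor of 3 counts for the 0 PBS UMIs, with an interval down to 1.14, and could not be given in cluster 5. The share of Osm UMIs in leukocyte clusters (97.9%) was 95.8% with classes from marker scores and 93.1% after thinning. The Osmr ratio of Müller glia-like cells (3.93) was 2.39 with marker scores, 8.16 with cells weighted equally and 1.87 without cells holding microglia transcripts. List genes called higher numbered 20 of 47 tested in microglia-like cells, 22 of 48 in Müller glia-like cells and 11 of 38 in rod-like cells. Over all genes tested, 7.14%, 7.98% and 12.7% were called higher. After thinning the list genes called higher numbered 11, 8 and 6. They numbered 3 in Müller glia-like cells without microglia transcripts, and in rod-like cells 17 at resolution 0.5, 7 with marker scores and 6 in cluster 0 alone. No share over all genes was taken under these alternatives, so these counts cannot be set beside one. The median log2 ratio of genes induced through Stat3 was 1.60 in cluster 5 alone (0.57 in all microglia-like cells) and 0.25 in Müller glia-like cells without microglia transcripts (1.04 in all). Thinning, smaller cell sets and stricter minimums leave fewer UMIs to call from, and the cause of the other shifts was not tested. Ratios that crossed 1 were Il6st in microglia-like cells (0.758) with cells weighted equally (1.24) and in cluster 5 alone (1.58), Socs3 there (1.15) at resolution 2.0 (0.995), and Lifr in Müller glia-like cells (2.07) with cells weighted equally (0.775) and after thinning (0.870). Rod-like Socs3 (1.04), whose interval took in 1, was 0.927 with the stricter cell filter. Leaving out leukocytes with a rod transcript could not be done, since 0 of 109 and 2 of 365 microglia-like cells remained. The single clusters, the class without part 21 of cluster 7, and the rod-like class without cluster 15 were chosen after seeing the data. Median-of-ratios scaling multiplied all rod-like ratios by 1 common factor, so it moved all genes alike: Stat3 was 2.66, Il6st 1.87, under the 2-fold of a call, Socs3 0.881, and the median of genes induced through Stat3 -0.16. The Stat3 ratio was above 1 in microglia-like, Müller glia-like and rod-like cells under every alternative that gave a value.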
